A study of Mus musculus with 2 samples.

Results

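A set of 9 genes of the interferon response was followed in intestinal RNA from gut-specific GDE5 (Gpcpd1) knockouts and wild-type mice, as the labels call them. They were the signal transducer Stat2, the interferon regulatory factors Irf1, Irf7 and Irf9, the ISG15 system genes Isg15 and Usp18, the interferon-induced Ifi44, and the RNA sensors Ifih1 and Dhx58. The members are all gene probes of the array that carry one of these 9 names, 14 of 41174 probes. They were chosen by their knockout-over-wild-type ratios in this same comparison, so every ratio of theirs is given as a description, with no test. Of the 14 probes, 13 were well above background and covered all 9 genes, of 18988 genes or unnamed probes that entered the analysis.

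All animals were male, 20 weeks old and on a normal diet, and the labels used here give no strain. Gpcpd1 encodes GDE5, an enzyme that releases choline from glycerophosphocholine. The series text names 5 mice without saying whether per genotype. Pooling of animals, the promoter that drove the gut deletion and the part of the gene removed are not stated in the sources used here. Total RNA of the intestine was hybridised to 2 dual-colour Agilent arrays on 1 slide, with the RNA labelled knockout in Cy3 on array 1 and in Cy5 on array 2.

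Type I and type III interferons bind receptors whose signal brings STAT2 and IRF9 together in the complex ISGF3. ISGF3 enters the nucleus and binds the interferon-stimulated response element (ISRE) of its target genes, among which are the genes of its own subunits STAT2 and IRF9, of IRF7 and of the sensors. Interferon-gamma acts instead on the gamma-activated site (GAS) of genes such as Irf1. In the gut, epithelial cells answer mainly type III interferon, and immune cells of the wall answer type I.

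Promoters of 3 genes are shown because they hold matches to the ISRE or GAS pattern before the start site. Whether these matches are used as response elements was not tested. RefSeq promoter windows of GRCm38.p6, from 250 bases before to 50 bases after a start site, matched 7 of the 9 genes with 9 windows. Only the bases before the start are printed, in lower case, with matches to the ISRE core (GAAA, any 2 bases, GAAA, on both strands) in capitals for Isg15 and Stat2 and matches to TTCNNNGAA (GAS, which reads the same on both strands) in capitals for Irf1. They lie at chr4:156200819-156201068 (minus strand), chr10:128270248-128270497 (plus strand) and chr11:53769764-53770013 (plus strand).
Isg15: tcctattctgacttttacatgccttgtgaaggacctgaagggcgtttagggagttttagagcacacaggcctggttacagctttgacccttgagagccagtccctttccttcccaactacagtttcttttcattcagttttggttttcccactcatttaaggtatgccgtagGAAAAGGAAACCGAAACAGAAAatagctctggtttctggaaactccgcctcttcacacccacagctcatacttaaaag
Stat2: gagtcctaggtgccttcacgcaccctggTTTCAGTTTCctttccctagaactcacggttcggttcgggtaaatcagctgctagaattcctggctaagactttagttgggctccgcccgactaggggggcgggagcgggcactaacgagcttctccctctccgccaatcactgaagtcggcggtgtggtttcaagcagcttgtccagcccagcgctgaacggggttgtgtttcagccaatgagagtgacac
Irf1: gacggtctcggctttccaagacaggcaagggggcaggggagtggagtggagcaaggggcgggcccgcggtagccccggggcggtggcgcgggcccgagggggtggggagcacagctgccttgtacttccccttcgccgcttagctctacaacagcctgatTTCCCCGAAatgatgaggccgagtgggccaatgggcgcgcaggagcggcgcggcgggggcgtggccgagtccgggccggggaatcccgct
Isg15 had 3 overlapping ISRE cores between bases -78 and -57 from its start site, and Stat2 had 1 on the other strand at -222 to -213. Ifih1 had 1 ISRE core after its start site, at bases 32 to 41. The Irf1 window with its GAS match at -90 to -82 is the first of 2 windows of that gene. Matches to the ISRE core were found in 3 of the 9 member windows, against 3.44% of all 32851 windows, and GAS matches in 1 of 9, against 8.3%. Ifi44, Irf7 and Irf9 had no match to either spelling in their windows, which says nothing of sites outside these bases or of other spellings.

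The probes that carry the ratios are 60 bases long and are printed as the scanner output gives them. Those of Irf9 and Ifih1 are printed because the probes of each pair disagreed, and those of Usp18 and Ifi44 because their ratios were among the highest of the 9 genes. For probes near a transcript's end only the first 30 bases are given, and nothing is capitalised.
Irf9 A_52_P176013: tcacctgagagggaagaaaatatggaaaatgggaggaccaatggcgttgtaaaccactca
Irf9 A_51_P127367, first 30: aataaaatttagctgggtgaggtattacat
Ifih1 A_52_P121468: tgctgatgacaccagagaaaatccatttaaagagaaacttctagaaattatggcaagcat
Ifih1 A_51_P387810, first 30: gatctcgggctacataaaattaagaaaact
Usp18 A_51_P164219, first 30: tttacacgaagactggatcctgacagatat
Ifi44 A_51_P487690, first 30: atgaattcattaagagagtagtgagagaac
The second Irf9 probe (mm9, chromosome 14, 56224980 to 56225190) and the second Ifih1 probe (chromosome 2, 62445113 to 62447260) span 211 and 2148 bases of the genome, so both cross an exon junction, as do the Irf7 probe and the second Irf1 probe. No annotation of mm9 was used here, so coding and untranslated parts are not given.

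Each ratio is log2(knockout / wild type) by the labels, given as the mean ± SD of 2 arrays (n = 2), after background correction (normexp) and loess within each array. No label says if both arrays carried separate RNA extracts, so the SD may be technical. Repeated spots of 245 probes had a median SD of 0.183 on array 1 and 0.121 on array 2. Across all genes the arrays were negatively correlated (r = -0.38, Spearman -0.42, genes being no independent replicates). A dye difference of 1.5-fold or more on both arrays was seen for 199 genes, 196 of them brighter in Cy3. In processed ratios there were 111 such genes, only 18 of them brighter in Cy3, and with a surface over the array taken off there were 30. In the scanner software's own processed ratios r was -0.02, and for the members both versions are therefore given. Gpcpd1 itself did not show lower signal with the knockout label: 3 of its 4 probes were at 0.47 to 0.68, and the other was at -0.13 ± 0.43. The direction of every ratio rests on the dye labels alone. All 15 markers of small intestinal epithelium passed the background filter, 6 higher and 5 lower on both arrays (16.9% and 18.1% of all genes). Markers of B cells (10 of 10), skeletal muscle (10 of 10) and endothelium (7 of 7) passed too, so the filter cannot check the tissue label.

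Of the 9 genes, 7 were higher on both arrays (Stat2, Irf9, Irf7, Isg15, Usp18, Ifi44 and Dhx58), none was lower on both, and Irf1 and Ifih1 had opposite signs on the arrays. Over all genes 16.9% were higher and 18.1% lower on both. Isg15 and Ifi44 were at least 1.5-fold higher on both arrays, as were 0.158% of all genes, while none of the 9 was 1.5-fold lower (0.0579% of all genes). By probe, 8 of 13 were higher on both arrays (17.4% of all probes) and 2 at least 1.5-fold (0.12%). The median of the 9 was 0.31 (0.34 on array 1 and 0.34 on array 2), beside -0.01 over all genes. In processed ratios 8 of the 9 were higher on both (20.2% of all genes) and 1, Ifi44, was at least 1.5-fold higher on both (0.542%), and by probe 10 of 13 (20.7%) and 2 (0.571%). The comparison chose the members, so nothing is read from these counts, and in bulk tissue a change in the number of cells of a type and a change in RNA per cell cannot be told apart.

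**Figure D1:**
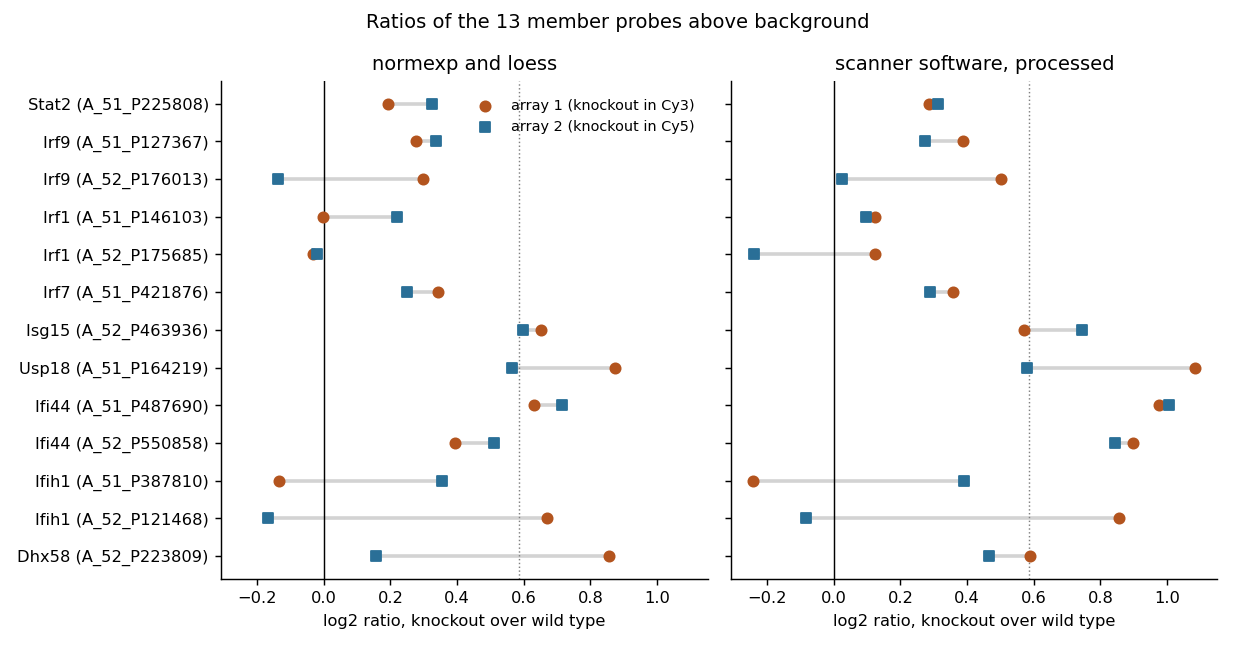
Log2 ratios (knockout over wild type, x axis) of the 13 member probes above background on array 1 (circles) and array 2 (squares), left after normexp and loess and right as processed by the scanner software; the dotted line marks a 1.5-fold difference. The probes of Isg15, Usp18 and Ifi44 lie right of 0 on both arrays in both panels, and both Ifih1 probes cross 0.

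Isg15 encodes a ubiquitin-like protein that interferon induces and that is joined to other proteins or secreted. Its single probe had corrected intensities of 1134 and 1069 in the RNA labelled knockout on arrays 1 and 2, and of 723 and 707 in the RNA labelled wild type. Intensities were not scaled between the arrays, so genotypes are compared within an array only. The value labelled knockout was the higher on each array, and the gene was 1.54-fold higher (0.62 ± 0.04, with 0.65 and 0.60). The processed ratio was 0.66 ± 0.12.

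Usp18 encodes the protease that removes ISG15 from its targets and also holds back signalling at the type I receptor. Its single probe (chromosome 6, 121220513 to 121220572, mm9) read 1000 (999.8) and 822 in the RNA labelled knockout, and 546 and 556 in the RNA labelled wild type. The gene was 1.65-fold higher (0.72 ± 0.22, with 0.87 and 0.56). Its array 2 ratio was just under the 1.5-fold line (0.58), and the lower Isg15 ratio was just over it. The processed ratio was 0.83 ± 0.36, with 1.09 on array 1 and 0.58 on array 2.

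Ifi44 encodes an interferon-induced cytoplasmic protein. Its brighter probe (chromosome 3, 151394035 to 151394094, mm9) read 309.8 and 301 in the RNA labelled knockout against 200.1 and 183 in the RNA labelled wild type, 1.59-fold higher (0.67 ± 0.06). The other probe, designed on another transcript and placed at 151409005 to 151409064, was at 0.45 ± 0.08, higher on both arrays. Ifi44 moved most with the processing among the 9 genes. The software's processed ratios of these probes were 0.99 ± 0.02 and 0.87 ± 0.04. Without the offset of 50 that the background correction adds to every signal, the first probe was at 0.85. With outlier-marked spots kept it was at 0.44 (0.63 and 0.25), under 1.5-fold on array 2, and the mean of both probes was 0.56.

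**Figure D2:**
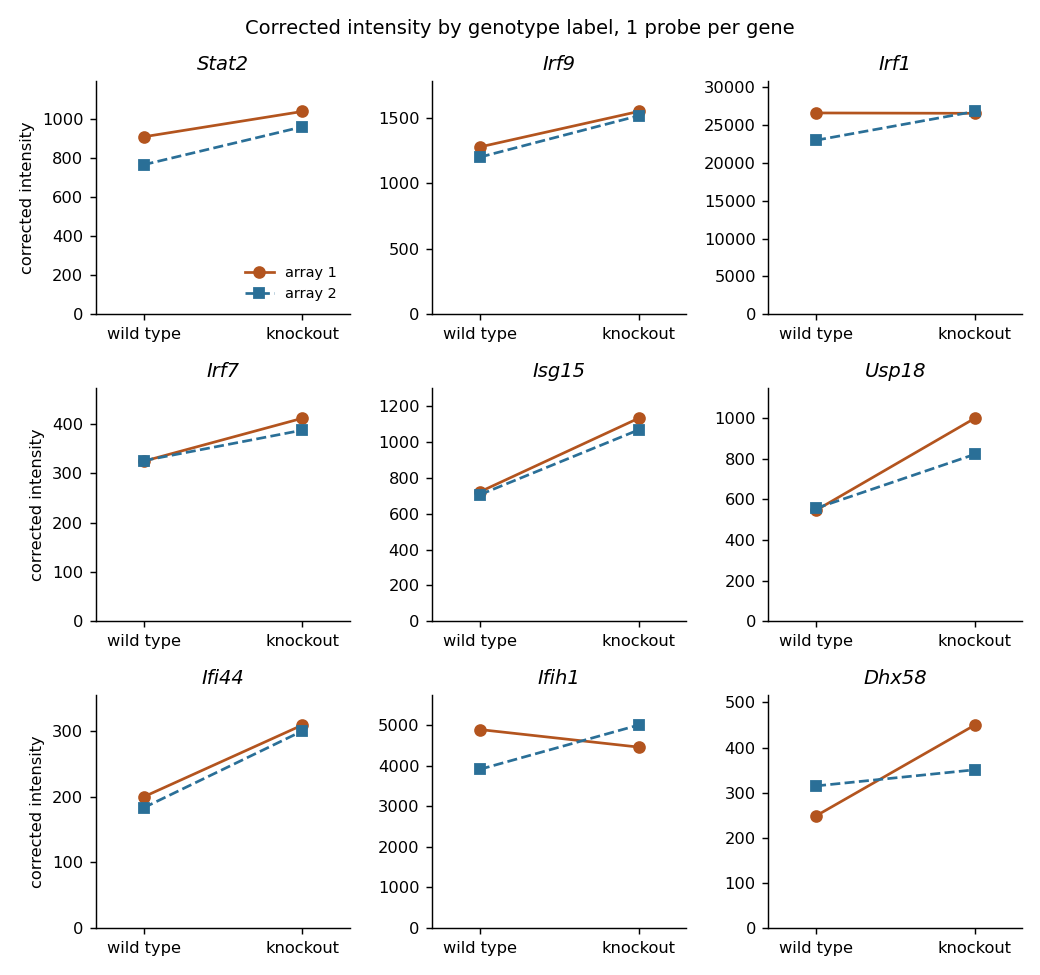
Corrected intensity (y axis, from 0, arbitrary units) of the RNA labelled wild type and knockout on array 1 (solid line) and array 2 (dashed line), for the brightest probe of each gene; each panel has its own scale. The lines of Isg15, Usp18 and Ifi44 climb on both arrays, while the Ifih1 lines run in opposite directions.

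The factors of ISGF3 differed by less. Stat2, its transactivating subunit, had corrected intensities of 1037 and 958 in the RNA labelled knockout and 907 and 764 in the RNA labelled wild type. The knockout value was the higher on each array, at 0.26 ± 0.09 (0.19 and 0.33), 1.20-fold. The processed ratio of Stat2 was 0.30 ± 0.02. Irf9, the DNA-binding subunit of ISGF3, read 1546 and 1513 against 1275 and 1198 in its brighter probe. It was at 0.31 ± 0.04, 1.24-fold, with a processed ratio of 0.33 ± 0.08. Its second probe was dim, at 91.8 and 77.5 against 74.7 and 85.2, with ratios of opposite sign on the arrays (0.08 ± 0.31). The processed ratio of that probe was 0.26 ± 0.34.

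Irf7, the factor that amplifies type I interferon production, read 412 and 388 against 325 and 326. It was at 0.30 ± 0.07, 1.23-fold, with a processed ratio of 0.32 ± 0.05. Irf1, a target of interferon-gamma that itself activates many defence genes, was not higher on both arrays after loess. Its brighter probe read 26553 and 26798 in the RNA labelled knockout and 26601 and 22998 in the RNA labelled wild type. The ratios of that probe were -0.003 and 0.22 (0.11 ± 0.16). The second Irf1 probe was at -0.03 ± 0.01, the only one of the 13 probes lower on both arrays. In the processed ratios the brighter Irf1 probe was higher on both arrays by little (0.12 and 0.10), and the second probe went opposite ways (0.12 and -0.24).

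Ifih1 encodes MDA5, the cytosolic sensor of long double-stranded RNA, and Dhx58 encodes LGP2, a related helicase that modulates it. The 2 Ifih1 probes opposed each other within each array. The brighter one read 4464 and 5007 in the RNA labelled knockout and 4897 and 3914 in the RNA labelled wild type, with ratios of -0.13 and 0.36, so that Cy5 was the brighter dye on both arrays. The second probe had ratios of 0.67 and -0.17, with Cy3 the brighter dye on both arrays. Their means were 0.11 ± 0.35 and 0.25 ± 0.59, and their processed means 0.08 ± 0.45 and 0.39 ± 0.66. Neither probe gave a genotype direction that held on both arrays.

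Dhx58 was higher on both arrays but unevenly. Its probe on the RefSeq transcript (chromosome 11, 100556271 to 100556330, mm9) read 449.9 and 351 against 249 and 315. The ratios were 0.86 and 0.16 (0.51 ± 0.50, 1.42-fold). In processed ratios they were 0.59 and 0.47, and after a surface over the array was taken off 0.66 and 0.28. The second Dhx58 probe, designed on another transcript, was not well above background in either genotype on either array.

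The ratios of 7 of the 9 genes were above the repeat-spot SD on both arrays, as were those of 4.63% of all genes. The scanner software's error model gave each tested member spot an error of 0.20 to 0.25 on the log2 scale, and among the brightest probes the processed Irf1 ratios were below theirs on both arrays. Sorted by these ratios, the trio Isg15, Usp18 and Ifi44 (0.56 to 0.87) lay above the trio Stat2, Irf9 and Irf7 (0.19 to 0.34). Within either trio the ranges over both arrays overlapped. The sorting itself made the gap between the trios, so nothing is read from it. That gap was absent with median centring (Irf7 at 0.51 on array 1, Usp18 at 0.34 on array 2). It was also absent with outlier-marked spots kept (Irf7 at 0.34 on array 1, Ifi44 at 0.25 on array 2). The ratios of Dhx58 spanned both trios. The test across all genes, limma's moderated test with Benjamini-Hochberg adjustment, called 0 of 18988 genes (smallest adjusted p = 0.453) with 236 at an unadjusted p under 0.05 (0.969% of genes higher and 0.274% lower). On processed ratios it called 38 genes (0.132% higher and 0.0685% lower). As both arrays may carry the same RNA extracts, limma's p-values here and below may measure technical spread and not spread between mice.

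**Figure D3:**
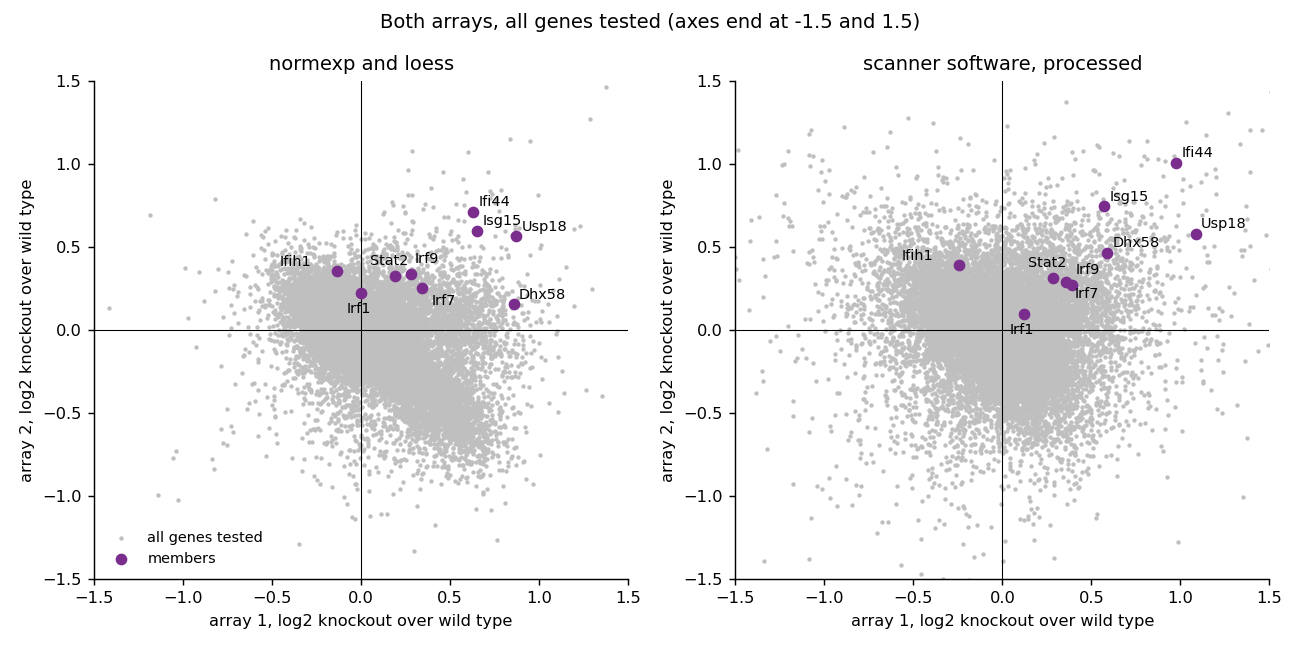
Log2 ratio (knockout over wild type) on array 1 (x axis) against array 2 (y axis) for all genes tested (grey) and the 9 members (purple), left after normexp and loess and right as processed by the scanner software; points past 1.5 in size are not drawn. Ifi44, Isg15 and Usp18 sit in the upper right of both panels, and the grey points on the left run downward (r = -0.38).

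The rest of the pathway was read through 11 lists of other genes arranged by role. Of 122 genes that passed the background filter, 63 were higher on both arrays, 8 lower on both and 51 of opposite sign, with a median of 0.17. Over all genes 16.9% were higher and 18.1% lower on both, which stands beside every list count below. In processed ratios 72 were higher (20.2% of all genes) and 10 lower on both, with a median of 0.17. None passed limma (adjusted p under 0.05) over all genes, and on processed ratios 1 did, the ubiquitin-like Ubd (adjusted p = 0.0135). That p-value, too, may measure technical spread only. Genes at least 1.5-fold higher on both arrays (0.158% of all genes) numbered 6: Rsad2, Oasl2, Oas2, Igtp, Tgtp1 and Ubd.

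Among the interferons themselves, 13 were on the array and 8 passed the filter. Of these, 3 were higher on both arrays, with Ifng at 0.23 ± 0.14, and 1 was lower (Ifna12, -0.06 ± 0.02). In processed ratios only 1 of the 8, Ifng, was higher on both (0.40 and 0.48), beside 20.2% of all genes. The Ifng probe was dim, at 140 and 144 against 128 and 115. Ifnb1, Ifna4, Ifne and Ifnk were not well above background anywhere. Alpha interferons are near-identical and can share signal. Of 9 receptor chains and kinases 1 was higher on both, the type I receptor chain Ifnar2 (0.39 ± 0.10), 1 was lower on both (Ifngr1, -0.03 ± 0.03), and the list median was -0.03. Of the other STATs, 2 of 6 were higher and 2 lower on both arrays, with Stat4 at 0.17 ± 0.01 and Stat5a at -0.37 ± 0.34. Of the other IRFs, 3 of 6 were higher on both, with Irf2 at 0.54 ± 0.44.

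Other sensors and adaptors had a median of 0.03, with 8 of 19 higher on both arrays. Ranked by the smaller of the array ratios, Zbp1, a sensor of Z-form nucleic acid, came first (0.55 ± 0.02), then Tlr7 (0.18 ± 0.02). By the mean, the RNA sensor Ddx58 (0.53 ± 0.68, with 1.01 and 0.05) and the RNA-editing enzyme Adar (0.23 ± 0.17) also stood above Tlr7. The DNA sensor Cgas was at -0.09 ± 0.01. The enzymes that join ISG15 to proteins were higher on both arrays in 4 of 5 genes, the ligase Herc6 at 0.52 ± 0.43, the activating enzyme Uba7 at 0.46 ± 0.41 and the conjugating enzyme Ube2l6 at 0.28 ± 0.37 and the ligase Trim25 at 0.09 ± 0.08. The first 3 had larger ratios on array 1 (0.55 to 0.83) than on array 2 (0.02 to 0.22), Trim25 the reverse (0.04 and 0.15), and in processed ratios Ube2l6 was at 0.17 and 0.50 (0.496). Arih1, a further ligase of ISG15, was at -0.46 ± 0.59. Among 10 negative regulators 2 were higher on both arrays, 2 lower and 6 of opposite sign, with a median of -0.03. The higher ones were Trim21 (0.53 ± 0.27) and the phosphatase Ptpn6 (0.19 ± 0.02). The lower ones were Socs3, an inhibitor of cytokine receptors (-0.48 ± 0.01), and Nlrx1 (-0.22 ± 0.15).

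No difference between lists was tested. Oas and Ifit genes with viperin were higher on both arrays in 9 of 11 (median 0.38), the inducible GTPases in 11 of 14 (median 0.40), other interferon-stimulated genes in 13 of 21 (median 0.29) and genes of MHC class I loading in 7 of 13 (median 0.23). In processed ratios these were 11 of 11 (median 0.67), 12 of 14 (0.39), 17 of 21 (0.25) and 9 of 13 (0.27). Trim30a was at 0.53 ± 0.05, Rtp4 at 0.63 ± 0.27, and the immunoproteasome subunit Psmb8 at 0.50 ± 0.05. The ISRE core was found in 6 of 10 promoter windows of the Oas and Ifit list in 7 of 9 of the GTPase list and in 6 of 20 and 3 of 14 of the others, against 3.44% of all windows. Among the interferon genes it was in 10 of 18 windows, with a median ratio of 0.00 over the 8 genes that passed the filter. It was in 0 of 5 windows of the ISG15 conjugation list (median 0.28). The windows were not limited to genes that passed the filter, and a link between the motif and the ratios was not tested.

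**Figure D4:**
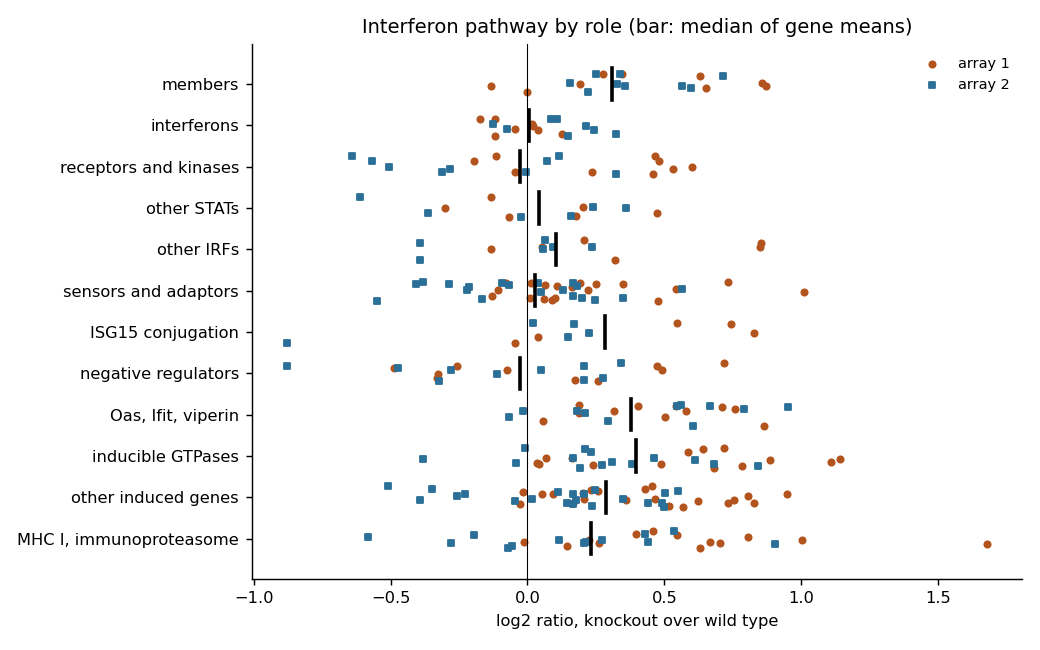
Log2 ratio (knockout over wild type, x axis) of each gene on array 1 (circles) and array 2 (squares) for the 9 members and 11 lists of other interferon pathway genes; black bars mark the median of the gene means. The bars of the members and of the target gene lists lie at 0.23 to 0.40, and those of interferons, receptors and negative regulators between -0.03 and 0.00.

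All 10 B cell markers were higher on both arrays (median 0.38), with summed corrected intensities of 8490 and 7980 in the RNA labelled knockout and 5560 and 5790 in the RNA labelled wild type. The shares of all genes higher (16.9%) and lower (18.1%) on both arrays stand beside each marker count here. Of the T and NK cell markers 8 of 13 were higher on both (median 0.18), with sums of 11200 and 9900 against 8970 and 9410. Dendritic cell markers were higher on both in 4 of 12 and lower on both in 2 (sums 10100 and 7480 against 7340 and 8430). Bst2, also counted among the other interferon-stimulated genes, gave 3429 and 2204 against 1775 and 2585 of these sums. Macrophage and neutrophil markers were higher on both in 3 of 12 (sums 108000 and 132000 against 150000 and 118000). Lyz2 alone gave 89253 and 113711 against 134860 and 100879, so these sums mostly follow that probe. Skeletal muscle markers were higher on both in 8 of 10 (median 0.65, sums 3870 and 3680 against 2450 and 2320). The other 2, Acta1 and Ckm, were lower on both. In processed ratios the medians were 0.57 for B cells, 0.23 for T and NK cells, 0.19 for dendritic cells and 1.40 for skeletal muscle. Limma then called 6 of the 10 skeletal muscle markers higher (adjusted p under 0.05), beside 0.132% of all genes. Some of these were dim, such as Pvalb at 93 and 96 against 66 and 66, with a mean of 0.53 here and 3.43 in processed ratios. Every marker of these lists that was on the array was well above background in at least 1 genotype on 1 array. Their part in the ratios of the 9 genes was not tested.

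Genes whose pair of ratios lay nearest to the median pair of the members (0.34 and 0.34, by Euclidean distance over the 2 arrays) were Xirp2, Rbm14, Cfap97, Tspan33 and Stk35os1, at distances of 0.013 to 0.021. With 2 arrays this likeness is loose, as 81 genes lay within 0.1. Xirp2, a muscle gene, had a processed mean of 2.91 beside its 0.34 here, and the other 4 had processed means of 0.28 to 0.38.

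**Figure D5:**
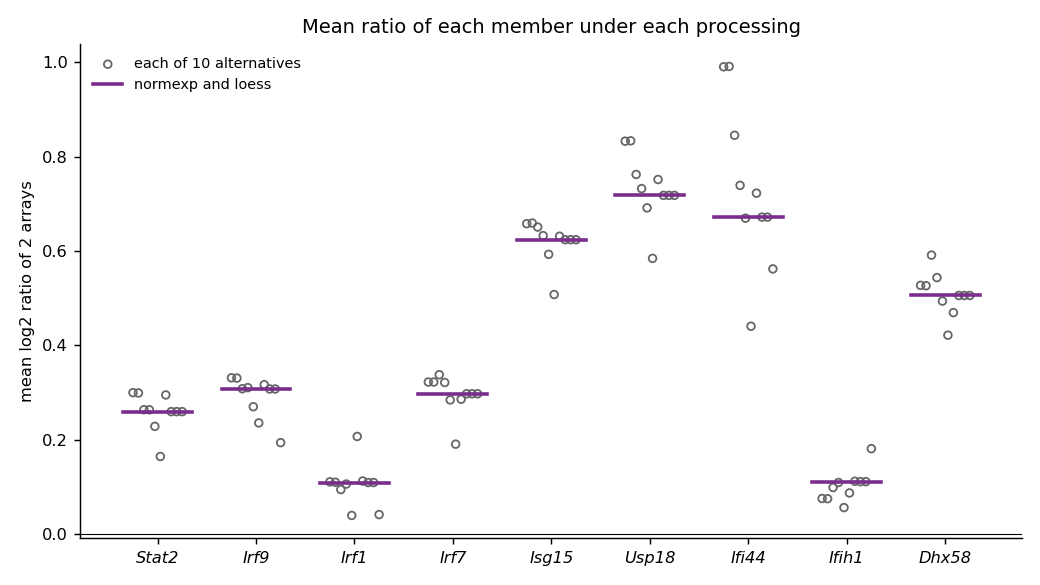
Mean log2 ratio of the 2 arrays (y axis) for each member under the processing used here (purple bar) and under each of 10 alternatives (open circles). Every mean is above 0, from 0.04 for Irf1 to 0.99 for Ifi44, and Ifi44 has the widest spread (0.44 to 0.99).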

How the data were processed

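The authors' deposited scanner files hold intensity values of each spot and its local background, per the file headers from Agilent Feature Extraction 11.5.1.1 on array design 014868 with mm9 positions (the submitters' processing notes name version 9.5). The deposited log10 ratio of processed Cy5 over processed Cy3 is background-subtracted, detrended and dye-normalized by that software, per the file headers, and the deposited value table holds the same log10 ratios rounded. Spots marked as outliers (210 and 294) were left out, background was corrected with normexp (offset 50), and loess was run per array, control spots having weight 0 (R 4.3.3, limma 3.58.1). Probes well above background for 1 genotype on both arrays were kept, 29047 in all, and the brightest stood for a gene. The number of arrays limits precision. The offset draws ratios of dim probes toward 0. Symbols were updated through RefSeq accessions for 31441 of 43379 spots.

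Members, lists and tests were chosen with earlier results of these data known. Named are all members, up to 3 genes furthest up and 2 furthest down on both arrays per pathway list, and the 5 nearest genes (some items the rule names are not reported here); Ddx58, Adar, Ube2l6 and the full set past 1.5-fold were added after their values were seen. The limma script was run on simulated arrays with independent noise and with shifts larger than those of the members. The arrays here were negatively correlated, so that run does not show how the test behaves on them. The 10 alternatives and each array alone are given in the closing section.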

Additional observations from a re-analysis of the deposited data

How the results depend on the processing

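Under the 10 alternatives, Stat2, Irf9, Irf7, Isg15, Usp18 and Ifi44 were higher on both arrays in every one, and Dhx58 in all but median centring (-0.03 on array 2) and the fit with outlier-marked spots kept (-0.01 on array 2). Irf1 was higher on both in processed ratios, the value table and after the surface was taken off, and Ifih1 only with the mean of its probes. The mean ratio of every member stayed above 0 under these 10. On single arrays Ifih1 was at -0.13 and 0.36 and Irf1 at -0.003 (-0.0026) and 0.22, the lower value on array 1. The median of the members was 0.24 with outlier spots kept, 0.28 under median centring, 0.30 (0.297) when probes were averaged, 0.32 with no background correction (0.321) and with the surface taken off (0.317), 0.33 with processed ratios and the value table, and 0.34 (0.338) with normexp offset 0. On array 1 alone it was 0.344, and on array 2 alone 0.337. Members at least 1.5-fold higher on both numbered 1 with processed ratios, the value table or the mean of probes, 0 with median centring or outlier spots kept, and 3 with offset 0, where Usp18 joined. On array 1 alone they numbered 4, and on array 2 alone 2. Of all genes, those at least 1.5-fold higher on both arrays numbered 103 with processed ratios and 101 with the value table. They numbered 59 with offset 0 and 17 with outlier spots kept. At least 1.5-fold higher were 984 genes on array 1 alone and 76 on array 2 alone. Limma called 38 genes with processed ratios, 36 with the value table, 22 with offset 0 and 6 with the surface taken off; on 1 array no test is possible. Pathway genes higher on single arrays numbered 78 to 99 and their median was 0.15 to 0.25. The causes were not tested, except that single arrays ask for 1 array and not both. No paired analysis was possible because the design has 1 group of ratios, each already within an array, on 1 slide. Low signal limits the second Irf9 and Dhx58 probes.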
